A study of Homo sapiens with 15 samples.

Results

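Methylation was measured at the 246 ZNF genes of chromosome 19, out of 20033 protein-coding genes of the annotation. A member was any protein-coding gene of that chromosome whose symbol was ZNF followed by digits, with or without a final letter. The rule used symbol and position alone. Each member was read at its promoter (500 bp either side of the gene start) and at its gene end (the last 2 kb of the gene). Beside them stood the last coding segment, which is the final stretch of coding sequence in the canonical transcript. The working name of the 2 kb window was the zinc finger exon, but the annotation goes against it. In 141 of the 246 members that window held no coding base, and in those same 141 the last coding segment lay wholly outside it. The window is therefore called the gene end here, and the last coding segment stands for the finger exon. The start of the canonical transcript lay outside the promoter window in 53 members.

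The 15 libraries were whole-genome bisulfite sequencing (WGBS) of HCT116, a human colorectal carcinoma line, in which doxycycline switches on a lentiviral short hairpin RNA against the UHRF1 or the DNMT1 transcript. All cells carried such a construct, the Baseline cells included. Against UHRF1 there were 3 populations, each grown from 1 clone and named Cl.3, Cl.6 and Cl.9. Against DNMT1 there were R1 and R2, 2 populations kept in bulk. Each population gave a Baseline library at day 14 without doxycycline, a Knockdown library at day 14 under 10 ng/mL doxycycline, and a Recovery library at day 28, after 14 days with the drug and 14 days without it. The hairpin, clonal or bulk growth and the deposited table changed together, so wherever the shRNAs are compared these cannot be told apart. Day and stage changed together at Recovery, since no untreated library of day 28 was analysed here.

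C2H2 zinc finger genes form the largest family of human transcription factors, and many of them lie in clusters of tandem copies on chromosome 19. Many pair an array of DNA-binding fingers, encoded in a single long last exon, with a KRAB domain that calls in the co-repressor TRIM28 and the H3K9 methyltransferase SETDB1. Many bind repeated elements and keep them silent, and the promoters of several members are known to become methylated in tumours. DNMT1 copies methylation onto the new DNA strand after replication, and UHRF1 recognises the hemi-methylated CpGs that DNMT1 acts on.

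The libraries held between 315732617 and 590592161 reads at CpGs, with a median of 11 to 20 reads per CpG. Genome-wide mC (methylated reads over all reads at CpGs, in percent) was 71.7 to 76.5% at Baseline, 39.4 to 62.5% at Knockdown and 53.1 to 72.9% at Recovery. Cl.9 stood apart from the other clones. It lost the most methylation at Knockdown, so results for shUHRF1 are given by population as well as by mean. A window was tested where at least 5 CpGs had reads and at least 50 reads fell in every library. Under that filter 245 member promoters (ZNF112 was left out), 240 member gene ends and 224 last coding segments were tested. In each pair of libraries of the same shRNA and stage the regions differed by more than counting noise, and pairs across shRNAs were not compared in this way.

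At Baseline most member promoters fell into a methylated or an unmethylated class, with the rest between them. Mean Baseline mC over the 5 populations was under 20% at 108 promoters (44.1%), between 20 and 80% at 53 (21.6%), and at least 80% at 84 (34.3%). Over all 18406 promoters tested the corresponding shares were 55.0%, 16.8% and 28.2%, and over ZNF genes of other chromosomes they were 69.7%, 14.3% and 15.9%. Of the 84 promoters at or above 80% on average, 59 were so in all 5 populations, and of the 108 under 20% on average, 96 were so in all 5. In windows around the canonical transcript start the shares were 48.8, 20.3 and 30.9% of members and 60.8, 14.0 and 25.2% of all promoters. These shares are descriptions, with no test, since genes are not replicates of a condition.

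The methylated member promoters were rich in CpGs. Of the 195 tested member promoters with 40 or more CpGs, 67 (34.4%) were methylated to at least 80% at Baseline. The share was 14.4% over 12387 such promoters of all other genes, 12.3% over other genes of chromosome 19 and 12.1% over ZNF genes elsewhere. The median methylated member promoter held 54 CpGs, against 24 in methylated promoters of all other genes and 55 in those of ZNF genes on other chromosomes. In HCT116, CpG-dense promoters with heavy methylation therefore made up a larger share of the members than of the gene groups set beside them.

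**Figure D1:**
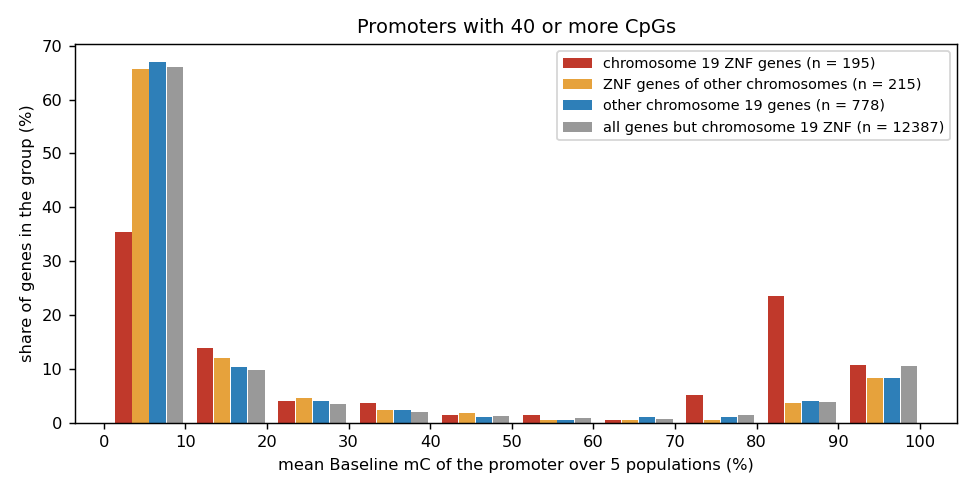
Distribution of mean Baseline mC (x axis, percent, in steps of 10) over promoters with 40 or more CpGs, as the share of each gene group (y axis, percent), for chromosome 19 ZNF genes and 3 comparison groups. The bars at or above 80% add up to 34.4% for the members and to between 12.1% and 14.4% for the other groups.

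Around the gene start the methylation of the members, summed over genes, dipped. In the 200 bp just upstream of the start, summed Baseline mC was 23.2, 29.1, 21, 23.4 and 23.4% in Cl.3, Cl.6, Cl.9, R1 and R2 for the members, and 14.7, 18.5, 12.1, 13.5 and 13.6% for other genes of chromosome 19. In the 200 bp centred 1100 bp inside the gene the members had returned to 70.1 to 77.9%, whereas the other chromosome 19 genes stood at 43.6 to 52.8%. The summed dip was thus shallower at the members than at other genes of chromosome 19 in each of the 5 populations. At 1100 bp inside the gene the summed mC of the members was also higher. These sums mix methylated and unmethylated promoters, so they do not give the depth or width of the dip at single genes.

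**Figure D2:**
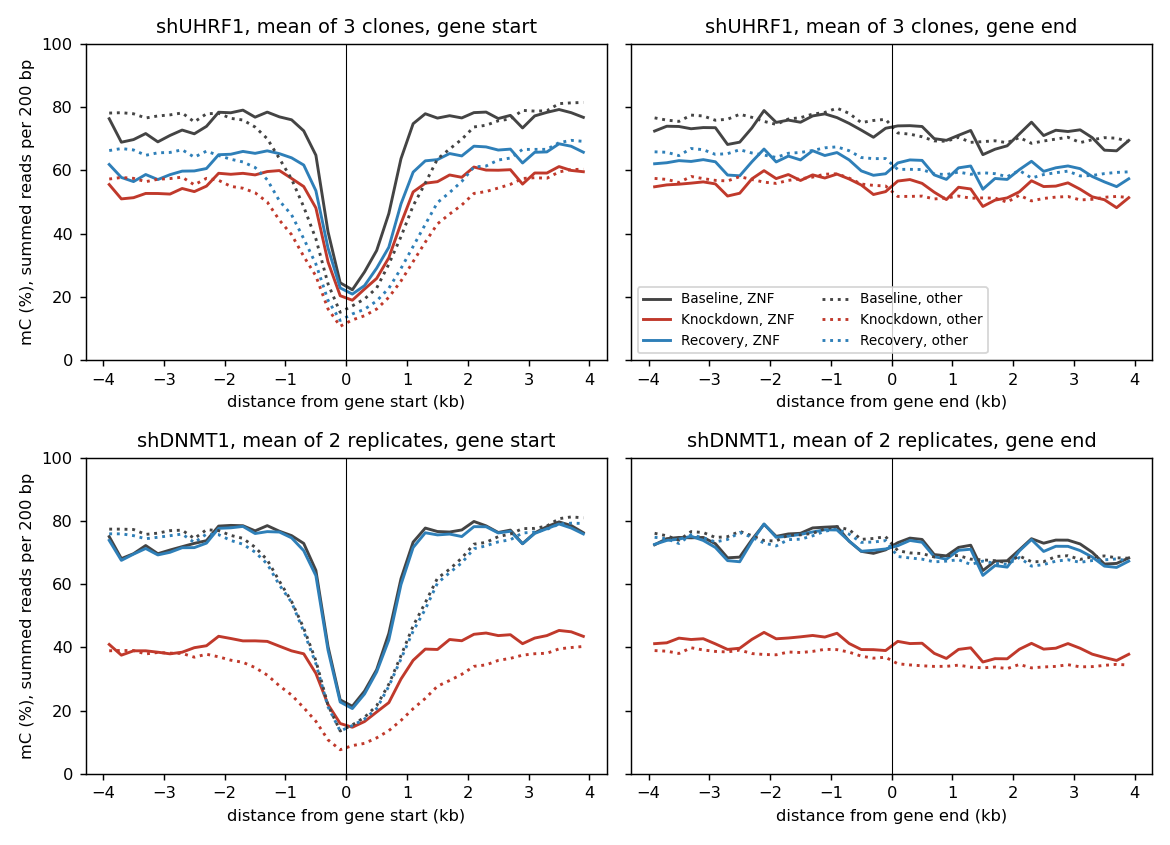
mC (percent) of summed reads per 200 bp by distance (kb) from the gene start and the gene end, as the mean of the 3 shUHRF1 clones (top) and of the 2 shDNMT1 populations (bottom), with solid lines for the members, dotted lines for other chromosome 19 genes and colours for the stages. Summed over genes, the dip of the members at the start is shallower and rises sooner inside the gene. The Recovery line lies on the Baseline line only in the shDNMT1 panels.

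Knockdown of either factor lowered methylation at most member promoters. With shUHRF1, 187 of 245 member promoters were called lower (76.3%) and none higher, against 73.2% of all promoters tested. Without the replicate block the count was 124 (50.6%, against 52.1% of all promoters in that fit). Without Cl.6 the share of all promoters called lower was smaller, as given below beside the unmethylated class. With shDNMT1, 190 were called lower (77.6%) and none higher, against 65.3% of all promoters tested. A call is an adjusted p under 0.05 in edgeR's quasi-likelihood test on methylated and unmethylated reads, with the population as a block. The median ΔmC of the members (percentage points, Knockdown minus the Baseline of the same population) was -9.90 with shUHRF1 and -17.4 with shDNMT1, beside medians of -5.44 and -6.69 over all promoters tested. By population it was -5.30 in Cl.3, -9.82 in Cl.6, -13.2 in Cl.9, -14.8 in R1 and -18 in R2. These medians moved with the window. Within 250 bp of the start they were -5.70 and -6.10 for the members and -1.55 and -0.513 over all promoters. From 1 kb upstream to 100 bp downstream they were -12.2 and -24.7 for the members and -11.7 and -19.4 over all promoters. With at least 5 reads per CpG the shDNMT1 medians were -8.92 and -5.76, and around the canonical start they were -10.3 and -3.64. Among the 84 methylated promoters alone the medians were -17.1 with shUHRF1 and -37.1 with shDNMT1, and methylated promoters of all other genes fell further, with medians of -21.2 and -42.1. Much of that gap went with CpG number. At 40 or more CpGs the methylated members had medians of -16.4 and -36.7, beside -16.8 and -38.2 in all other genes. Methylated promoters of ZNF genes on other chromosomes had medians of -15.9 and -37.9. Among promoters under 20% the members had the lower medians, at -2.47 and -2.84, beside -1.48 and -0.618 in all other genes. They also started higher there, with Baseline medians of 3.99 to 7.64% by population, against 1.09 to 4.05% in all other genes. In both groups Cl.6 held the highest of these medians, and the other populations read 1.09 to 1.65% in all other genes.

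**Figure D3:**
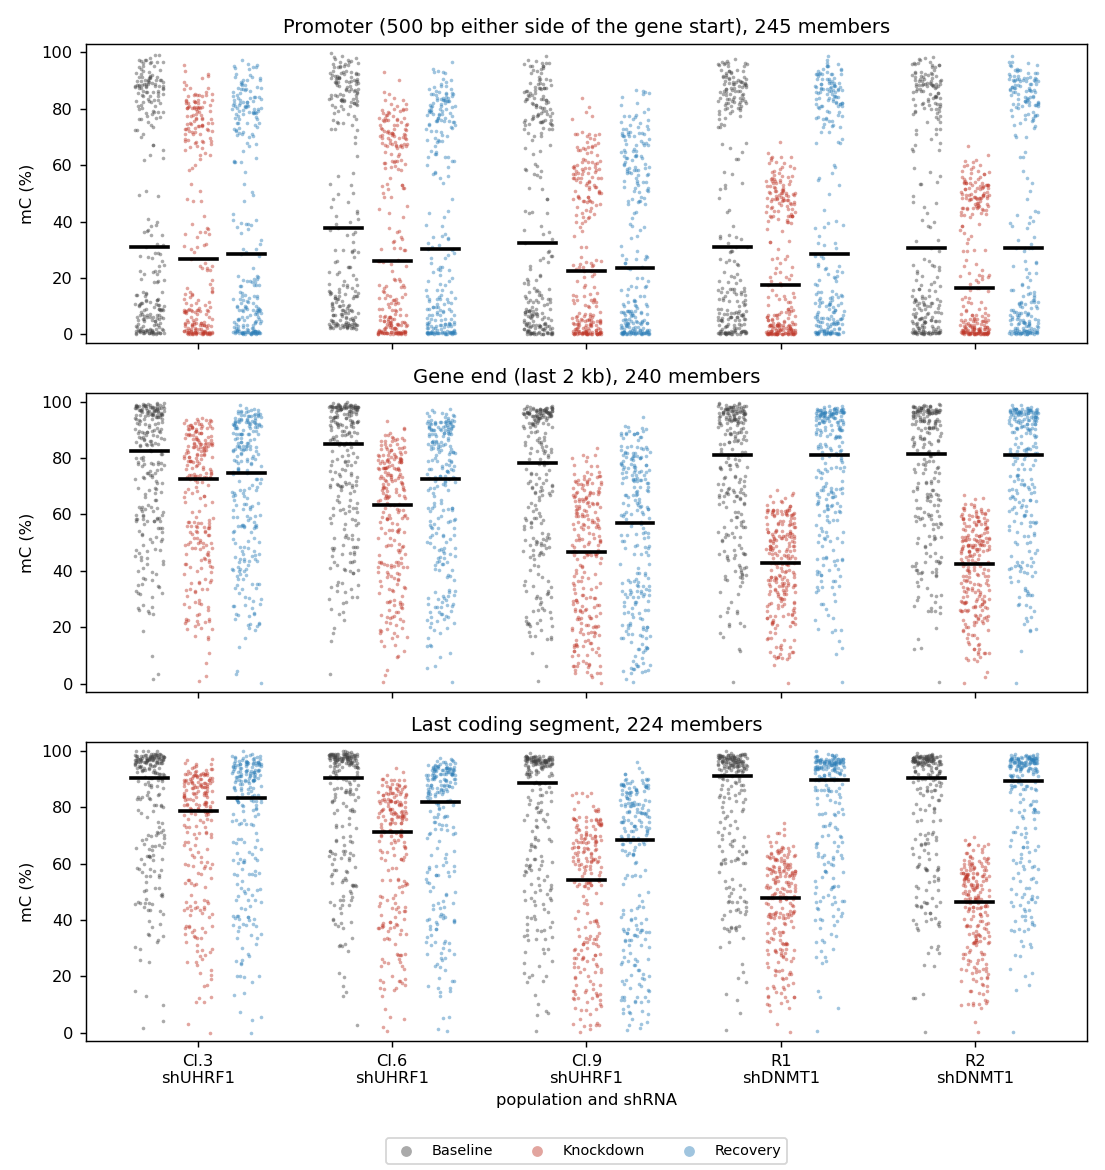
mC (percent) of the member genes in each of the 15 libraries at promoters, gene ends and last coding segments, by population and stage, each point 1 member and each bar the median. Promoter medians at Baseline lie between 30.7 and 37.8%, and fall to 16.6 and 17.5% in the shDNMT1 Knockdown libraries.

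The members that tumour studies name for promoter methylation were methylated in HCT116 as well. The list of 10 was ZNF132, ZNF135, ZNF154, ZNF177, ZNF331, ZNF471, ZNF582, ZNF667, ZNF671 and ZNF677. Baseline mC had a median of 89.4% over these 10 promoters and was at least 80% at 9 of them. All 10 were called lower with shUHRF1 (median ΔmC -16.3), against 73.2% of all promoters, and all 10 with shDNMT1 (median ΔmC -34.6), against 65.3%. Of all promoters, 55.0% were under 20% at Baseline, so these shares come from an unlike class and do not set the list apart. Both medians of the list were smaller falls than those of methylated promoters of all other genes, -21.2 and -42.1. Such promoters with 40 or more CpGs had medians closer to the list, at -16.8 and -38.2. The exception to heavy Baseline methylation was ZNF331, an imprinted gene, with a Baseline of 61.7, 39.2, 36.4, 43.3 and 54.0% in Cl.3, Cl.6, Cl.9, R1 and R2.

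Short pieces of promoter are shown for members that differ in Baseline class, with every CpG in capitals, 5′ to 3′ on the strand of the gene (hg38). Each is the stretch of 30 bases richest in CpGs, upstream of the gene start, that had at least 10 reads in every library. ZNF132, ZNF154 and ZNF471 were methylated, ZNF146 was unmethylated, and ZNF30 differed between populations. Their positions, in that order, are chr19:58440440-58440469 (minus strand), chr19:57709273-57709302 (minus strand), chr19:56507691-56507720 (plus strand), chr19:36214572-36214601 (plus strand) and chr19:34926871-34926900 (plus strand).
ZNF132: CGaggaCGaCGaCGgaagtccCGctgccag
ZNF154: CGttgaaCGccaCGctactaagccagtaag
ZNF471: CGccCGgctCGCGtaatcaCGcactgCGca
ZNF146: CGaggctcCGgacaCGcccCGgcccCGccc
ZNF30: CGcccagaagtctcCGggCGcCGgtgggCG

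The ZNF132 piece held 5 CpGs and showed how unlike the 2 knockdowns could be. Its mC at Baseline, Knockdown and Recovery was 85, 86.7 and 95.3% in Cl.3, 96.3, 91.9 and 97.4% in Cl.6, and 90.5, 83.3 and 95.0% in Cl.9. In R1 it was 100.0, 33.3 and 96.6%, and in R2 it was 95.0, 39 and 90.9%. Both shDNMT1 Knockdown values lay far below every other library, and of the 3 shUHRF1 Knockdown values only that of Cl.9 lay below the Baseline range. The ZNF146 piece, also with 5 CpGs, read between 0 and 2.86% in all 15 libraries. In the ZNF30 piece Baseline mC ran from 10.8% in R2 to 67.5% in Cl.9.

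Over the whole promoter window, ZNF132 (chr19:58439653-58440653, 67 CpGs) had Baseline values of 97.4, 97.7, 96.1, 95.9 and 97.9%, in the order of the clones followed by R1 and R2. Knockdown took them to 95.6, 93.2, 80.5, 49.9 and 55.2%. Recovery values were 94.8, 93.3, 85.5, 97.2 and 95.3%. The groups did not overlap at Knockdown, where the shDNMT1 populations lay below all shUHRF1 clones. The ΔmC at Knockdown was -7.30 ± 7.33 (SD, n = 3; edgeR adjusted p = 0.000247) with shUHRF1 and -44.4 ± 2.30 (SD, n = 2; edgeR adjusted p = 1.55e-09) with shDNMT1.

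The promoter of ZNF814 (chr19:57888574-57889574, 54 CpGs) behaved alike. Baseline mC was 97.3, 96.8, 96.2, 96.1 and 96.2% in Cl.3, Cl.6, Cl.9, R1 and R2, Knockdown mC was 90.9, 90.4, 71.7, 42.2 and 47.9%, and Recovery mC was 95.1, 92.8, 81.2, 92.3 and 91.6%. Its fall with shDNMT1, -51.1 ± 3.97 (SD, n = 2), was among the 5 largest at member promoters. ZNF541, a gene of meiotic germ cells, had Baseline values of 96.4, 96.7, 96.1, 96.7 and 94.9% in the same order, and Knockdown values of 88.5, 86.0, 83.7, 49.4 and 51.9%. Again every shUHRF1 clone stayed above both shDNMT1 populations.

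The largest fall at a member promoter with shUHRF1 was at ZNF574 (18 CpGs), where the clones went from a Baseline mC of 88.9, 91.7 and 78.6% to a Knockdown mC of 69.5, 58.6 and 27.3%, a ΔmC of -34.6 ± 16 (SD, n = 3; edgeR adjusted p = 1.08e-07). The spread was wide, and Cl.9 fell by far the most. With shDNMT1 the same promoter went from 86.4% in both to 40.8% (R1) and 38.3% (R2), a ΔmC of -46.9 ± 1.76 (SD, n = 2). That result belongs to the annotated gene start, because a window around the canonical transcript start of ZNF574 gave no call (edgeR adjusted p = 0.828) and a change of the opposite sign with shDNMT1. The next in order with shUHRF1 were ZNF446 (8 CpGs, ΔmC -29.7 ± 18.5), ZNF536 (41 CpGs, -28.5 ± 6.99), ZNF491 (22 CpGs, -24.7) and ZNF404 (25 CpGs, -24.4).

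Among promoters with at least 80% Baseline mC in all 5 populations, ZNF571, ZNF382, ZNF471, ZNF682 and ZNF582 fell least with shDNMT1. ZNF571 read 87.1 and 88.3% at Baseline in R1 and R2 and 61.0 and 61.8% at Knockdown, a ΔmC of -26.3 ± 0.317 (SD, n = 2). ZNF471 read 90 and 90.5% at Baseline and 62.8 and 59.4% at Knockdown, a ΔmC of -29.1 ± 2.71 (SD, n = 2). All of these promoters lost methylation beyond the spread of the populations, the smallest losers included.

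**Figure D4:**
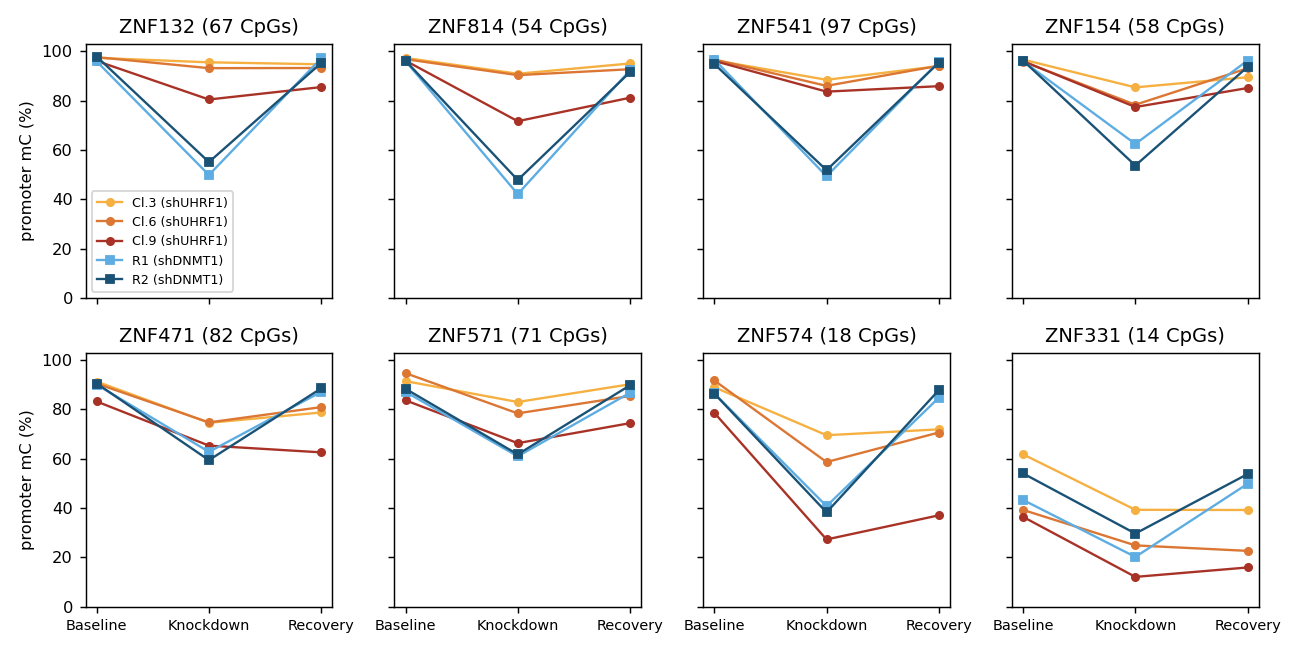
Promoter mC (y axis, percent) of 8 members at Baseline, Knockdown and Recovery, each line 1 population, with circles for shUHRF1 clones and squares for shDNMT1 populations. ZNF132, ZNF814 and ZNF541 drop to between 42.2 and 55.2% in both shDNMT1 populations at Knockdown and stay at or above 71.7% in the clones.

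Members known for binding repeats or ZNF genes were mixed in promoter methylation, with 3 of 5 under 20%. Over ZNF91 (a repressor of SVA elements), ZNF93 (a repressor of L1 elements), ZNF417 and ZNF587 (repressors of endogenous retroviruses) and ZNF274 (which binds the 3′ ends of ZNF genes), median Baseline mC was 15.5%. In both knockdowns 4 of these 5 promoters were called lower, near the shares of all promoters (73.2 and 65.3%), with ZNF274 the exception. ZNF93 was the most methylated of them, at 80.9, 74.8, 74.3, 82.8 and 77.1% in Cl.3, Cl.6, Cl.9, R1 and R2 at Baseline and 67.6, 52.0, 47.6, 45.4 and 44.8% at Knockdown. ZNF274 read 28.8, 29.1, 19.6, 13.6 and 18% at Baseline and 35.5, 29.8, 11.5, 12.6 and 26.4% at Knockdown, so its libraries overlapped fully.

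Of 6 members with other described roles, ZNF146, ZNF224, ZNF541, ZNF296, ZNF175 and ZNF536, the promoter was called lower at 6 with shUHRF1 (against 73.2% of all promoters) and at 4 with shDNMT1 (against 65.3%). Only ZNF541 and ZNF536, a repressor active in neurons, had methylated promoters. At ZNF146 the Baseline values were 0.899, 3.29, 1.03, 0.489 and 1.33%, and its called ΔmC of -1.20 with shUHRF1 held a fall from 3.29 to 0.118% in Cl.6. Over the 108 promoters of the unmethylated class, median Baseline mC was higher in Cl.6 (7.64%) than in the other populations (3.99 to 5.54%). Of those 108, 66 were called lower at shUHRF1 Knockdown with all clones (against 73.2% of all promoters) and 41 without Cl.6 (against 56.3%), where ZNF146 lost its call (edgeR adjusted p = 0.453). Only 55.0% of all promoters were under 20% at Baseline, so these shares do not come from a like class.

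ZNF30 was the 1 member promoter that was at least 50% methylated in 1 population and under 20% in another. Baseline mC was 14.2% in Cl.3 (95% Wilson interval 11.7 to 17.2%), 30.0% in Cl.6, 56.8% in Cl.9 (53.4 to 60.1%), 29.4% in R1 and 21.9% in R2. At Knockdown it was 30.1, 17.6, 31.1, 27.1 and 16.6%, rising in Cl.3 and falling in the others. The stages overlapped and no contrast was called at this promoter.

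At Recovery the shRNAs parted. With shUHRF1, 140 of 245 member promoters were still called lower than Baseline (57.1%), against 58.1% of all promoters tested, and the median ΔmC of the 245 was -6.18. The count was 89 without Cl.6 (36.3%, against 40.1% of all promoters in that fit) and 77 without Cl.9 (31.4%, against 37.7%). It was 30 without the replicate block (12.2%, against 21.3% of all promoters in that fit) and 63 within 250 bp of the start (27.0%, against 32.2%). By population the median was -2.49 in Cl.3, -5.98 in Cl.6 and -8.59 in Cl.9. With shDNMT1, 0 of 245 were called by edgeR, against 0% of all promoters tested, 3 had an unadjusted p under 0.05, and limma likewise called 0. The median there was -0.557.

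The share of the Knockdown loss that came back was computed over the summed reads of the 84 methylated member promoters. In Cl.3 their mC went from 88.8% to 79.2% and back to 83.3%, so 42.5% of the loss was regained. In Cl.6 it went from 89.2% to 72.6% and 80.5% (47.7% regained), and in Cl.9 from 84.4% to 59.4% and 66.1% (27.0% regained). In R1 it went from 88.2% to 51.6% and 87.1% (97.1% regained), and in R2 from 88.6% to 51.2% and 87.3% (96.7% regained). Methylated promoters of all other genes regained 44.7, 50.2, 37.1, 97.1 and 97.2% in the same order. Both shDNMT1 populations lost more and regained nearly all, and each clone lost less and regained under 50%.

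Member promoters with the largest remaining fall in the shUHRF1 clones were ZNF574 (ΔmC -26.5 ± 13.1), ZNF583 (-21.9 ± 8.59), ZNF681 (-20.6), ZNF676 (-20.2) and ZNF331 (-19.9 ± 3.02; SD, n = 3). ZNF583 went from 50.7% to 36.3% and then 38.7% in Cl.3, from 69.9% to 41.6% and 42.9% in Cl.6, and from 43.7% to 22.5% and 16.8% in Cl.9. Recovery was below Baseline in every clone, and Cl.9 stood below its own Knockdown value. ZNF583 returned to 53.0% from a Baseline of 57.0% in R1, and to 50.7% from 57.7% in R2.

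The difference between the shRNAs was itself tested as an interaction. At Knockdown 9 of 245 member promoters (3.67%) fell less with shUHRF1 than with shDNMT1, against 2.87% of all promoters tested in that direction. None fell more, against 0.0326%. On the unadjusted scale 84 members had p under 0.05, in either direction. The 9 were ZNF433, ZNF829, ZNF568, ZNF285, ZNF541, ZNF880, ZNF671, ZNF814 and ZNF132, of which ZNF829 and ZNF568 share 1 divergent promoter window and the same 67 CpGs. Differences ran up to 38.7 points at ZNF814 (edgeR adjusted p = 0.0225), 37.1 at ZNF132 (edgeR adjusted p = 0.0144) and 34.8 at ZNF541 (edgeR adjusted p = 0.0346). These calls were fragile: the count was 0 without the replicate block, 1 without Cl.3, 42 without Cl.9, 0 without R1 and 0 without R2, and limma gave 0 on log2 ratios and 44 on percentage points. At Recovery 11 member promoters (4.49%) stayed further below Baseline with shUHRF1 than with shDNMT1, a smaller share than the 8.74% of all promoters. None went the other way, against 0.00543%. That count was 0 without the replicate block, 37 without Cl.3, 5 without Cl.6 and 0 without Cl.9, R1 or R2, and limma gave 0.

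Gene ends lost methylation almost without exception, as they did over the genome. With shUHRF1, 236 of 240 member gene ends were called lower at Knockdown (98.3%), against 99.1% of all gene ends tested. With shDNMT1, 237 were called lower (98.8%), against 99.3%. The median ΔmC was -18.6 and -35.3, beside -21.9 and -41.6 over all gene ends. By population the medians were -10.9 in Cl.3, -18.2 in Cl.6, -27.0 in Cl.9, -34.6 in R1 and -35.5 in R2. Member gene ends started lower, with 51.25% at or above 80% at Baseline, against 79.7% of all gene ends. Within that class the medians were -19.6 and -39.4 for members, beside -22.4 and -43.3 over all gene ends. At shUHRF1 Recovery 231 of the 240 were still called lower (96.3%), against 94.7%, with a median of -12.1. Without the replicate block that count was 134 (55.8%, against 76.3% of all gene ends in that fit). At shDNMT1 Recovery 0 were called by edgeR, against 0%, and 5 had an unadjusted p under 0.05, with 0 calls by limma.

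ZNF576 had the largest gene-end fall with shDNMT1. Its last 2 kb (21 CpGs) read 98.3, 98.1, 94.9, 98.1 and 96.4% in Cl.3, Cl.6, Cl.9, R1 and R2 at Baseline, 80.2, 68.6, 44.8, 39.9 and 41.2% at Knockdown and 88.9, 85.8, 66.7, 97.0 and 93.1% at Recovery. All Knockdown values lay below all Baseline values, and Cl.9 lay close to the shDNMT1 populations. ZNF551 fell least among heavily methylated gene ends, from 96.7 and 94.2% to 68.6 and 66.9% in R1 and R2, a ΔmC of -27.7 ± 0.560 (SD, n = 2). ZNF723, with 8 CpGs, fell most with shUHRF1 (ΔmC -36.9 ± 14.8; SD, n = 3) and kept the largest loss at Recovery (-30.9 ± 16.7; SD, n = 3). Its Baseline values in Cl.3, Cl.6 and Cl.9 were 62.7, 89.4 and 55.6%, the Knockdown values 41, 38.3 and 17.8%, and the Recovery values 50.3, 44.7 and 20.1%.

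All 10 gene ends of the tumour-methylated list, all 5 of the repeat or ZNF binders and all 6 of the members with other roles were called lower in both Knockdowns and at shUHRF1 Recovery. With 99.1, 99.3 and 94.7% of all gene ends called lower in these contrasts, the counts did not set the lists apart.

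Between the shRNAs, 58 member gene ends (24.2%) fell less with shUHRF1 at Knockdown, against 37.1% of all gene ends tested, and 0 fell more, against 0.075%. At Recovery 137 (57.1%) stayed further below Baseline with shUHRF1, against 62.6%, and 0 the other way, against 0.00536%. Both member shares were below those of all gene ends, and other chromosome 19 genes stood at 52.3 and 73.7%. The Knockdown differences were largest at ZNF414 (34.5 points, edgeR adjusted p = 0.00422), ZNF146 (32.4 points, edgeR adjusted p = 0.00428) and ZNF628 (31.6 points, edgeR adjusted p = 0.00455). At ZNF146 the gene end read 92.0, 90.1, 69.5, 56.5 and 49.3% at Knockdown from Baselines of 98.9, 97.8, 96.1, 99.6 and 98.4%. The Knockdown count was 36 without Cl.3, 36 without Cl.6, 130 without Cl.9, 7 without R1 and 0 without R2. The Recovery count was 67 without Cl.9, 22 without R1 and 21 without R2. Without the replicate block both counts were 0.

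The last coding segment, where the fingers are encoded, changed in the same way. It was called lower in 223 of 224 members with shUHRF1 (against 96.4% of all segments tested) and in 220 with shDNMT1 (against 96.2%), with median ΔmC of -17.5 and -36.2. At Recovery 203 were called lower with shUHRF1 (against 84.5%), and with shDNMT1 0 were called by edgeR (against 0.0138%), with 9 at an unadjusted p under 0.05. In the test of the difference, 49 (21.9%) fell less with shUHRF1 at Knockdown (against 18.5%, and 0.166% in the other direction). At Recovery 56 (25.0%) stayed lower with shUHRF1 (against 26.4%, and 0.0277% in the other direction). The comparison shares cover only the 7229 segments that passed the filter, while those of 12804 genes did not. The segments that passed had a median of 3.74 CpGs per 100 bp, against 1.14 in members.

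A finger array is a repeat at the DNA level, and its CpGs repeat with it. All 246 members encoded at least 1 C2H2 finger, 3108 in all, with a median of 12 and a maximum of 36 per gene. Of these fingers 2594 were followed by another exactly 28 codons (84 bp) on, and these tandem units held 3589 CpGs. CpGs recurred at set positions of the unit, counted from the first base of the first cysteine codon. Position 28, the first base of codon 10, carried 398 CpGs in 159 genes (15.3% of units). Position 55 carried 292 (11.3% of units). Another CpG lay exactly 84 bp downstream of 15.3% of member coding CpGs, compared with 3.15% at 83 bp and 2.96% at 85 bp. For other genes of chromosome 19 the shares at these distances were 7.57, 6.36 and 6.39%.

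Pieces of 5 finger units are shown because each holds the position 28 CpG (in capitals) and no other CpG, 5′ to 3′ on the strand of the gene (hg38). They come from the best covered units, 1 per gene. In order they lie at chr19:44288264-44288293 (minus strand), chr19:44176284-44176313 (plus strand), chr19:44157653-44157682 (plus strand), chr19:44328386-44328415 (minus strand) and chr19:40036066-40036095 (minus strand).
ZNF235: ggaagggcttcagtCGtagcacagatctta
ZNF226: ggaaaggtttcagtCGtagatcagcactta
ZNF234: ggaagagcttcagtCGgagtgcacaccttc
ZNF112: ggaaggggttcagtCGaaattcataccttc
ZNF780B: ggaagtcttttaatCGtagctcaaacctta

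The first 4 genes lie in the cluster at chr19:43525497-45076478, and the surrounding letters are much alike, yet the CpG was not equally methylated. In ZNF235 it read 95.5, 95.8, 96.6, 92.0 and 100.0% at Baseline in Cl.3, Cl.6, Cl.9, R1 and R2, and 53.8, 48.3, 31.2, 50 and 42.3% at Knockdown. In ZNF112 the same position read 12.5, 50, 45.9, 57.6 and 61.5% at Baseline and 26.3, 17.9, 12.9, 18.2 and 20.0% at Knockdown. Each of these values rests on a single CpG with 19 to 43 reads in ZNF112 and 21 to 35 in ZNF235. Over all 398 CpGs at position 28, Baseline mC was 72.2, 73.0, 65.4, 71.5 and 71.3%, and Knockdown mC was 59.6, 53.2, 37.5, 36.9 and 36.4%. Those at position 12 read 87.9, 89.4, 83.2, 85.6 and 86.1% at Baseline and 82.9, 76.9, 63.4, 55.0 and 53.3% at Knockdown. Those at position 65 read 85.7, 85.7, 76.6, 82.0 and 82.5% at Baseline and 69.4, 64.5, 49.2, 44.6 and 42.9% at Knockdown. The fall was larger at position 65 than at position 12 in all 5 populations. These are 2 of many positions, picked without a fixed rule. Their CpGs lie in 70 and 91 genes, so position and gene cannot be told apart. Over all unit CpGs the Knockdown ΔmC was -17.7 ± 7.90 (SD, n = 3) with shUHRF1 and -34.9 ± 0.500 (SD, n = 2) with shDNMT1.

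Coding methylation was lower where the promoter was methylated. Where the promoter was under 20% at Baseline, the last coding segment had a median mC of 96.6%, and 98 of 100 segments were at or above 80%. Where the promoter was at or above 80%, the coding median was 57.5%, and 23 of 76 segments (30.3%) were at or above 80%. In all other genes with a methylated promoter 83.7% of the coding segments that passed the filter reached 80%, and 52.8% did in ZNF genes of other chromosomes. ZNF471 was an extreme case, 1 of 4 members with a coding segment under 20%. Its promoter read 83.2 to 91.3% at Baseline, while its last coding segment (8 CpGs) read 4.17, 16.7, 7.04, 13.8 and 12.3% in Cl.3, Cl.6, Cl.9, R1 and R2. ZNF146 shows the reverse, with a promoter at or under 3.29% and a coding segment of 98.1, 97.7, 98.1, 98.6 and 98.4%. ZNF132 and ZNF154 had both ends methylated, with coding segments of 93.7 to 97.7% and 86.8 to 97.5%.

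**Figure D5:**
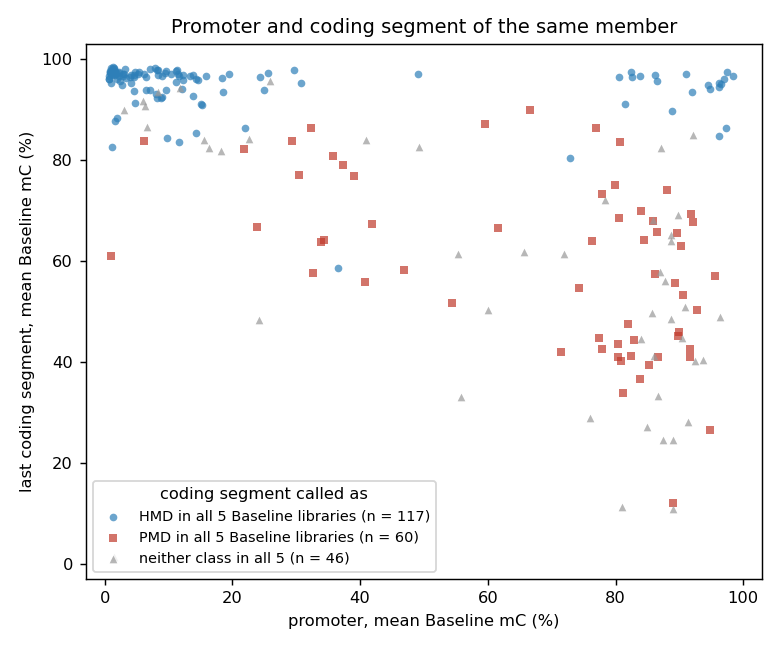
Mean Baseline mC of the promoter (x axis, percent) against that of the last coding segment (y axis, percent), each point 1 member, marked by whether the segment was called HMD or PMD in all 5 Baseline libraries. Points with a promoter under 20% lie near the top (median 96.6%), and those with a promoter at or above 80% spread downward (median 57.5%).

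The domain calls split most members in the same way. HMDs and PMDs are highly and partially methylated domains, and UMRs and LMRs are short unmethylated and lowly methylated regions, all called by the authors in each library on its own. The coding segment lay in an HMD at Baseline in all 5 populations for 125 members, in a PMD in all 5 for 66, and in neither consistently for 55. Baseline promoter mC of the HMD members had medians of 8.68, 10.6, 7.18, 7.52 and 7.60% in Cl.3, Cl.6, Cl.9, R1 and R2. That of the PMD members had medians of 81.7, 82.9, 75.8, 82.0 and 81.5%, and that of the 55 had medians of 80.9, 82.9, 74.3, 81.2 and 79.2%. The coding segment lay in a PMD for 39.4, 43.5, 29.3, 45.1 and 44.7% of members in the same order, and for 9.02, 13.3, 6.5, 14.4 and 13.6% of other chromosome 19 genes. The domain calls and mC come from the same reads, so they are not independent of each other.

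HMDs over coding segments disappeared at Knockdown in Cl.9, R1 and R2, at members and at other chromosome 19 genes alike. Member counts at Baseline, Knockdown and Recovery were 141, 114 and 132 in Cl.3, 137, 46 and 123 in Cl.6, and 134, 0 and 64 in Cl.9. They were 132, 0 and 136 in R1 and 134, 0 and 135 in R2. Other chromosome 19 genes went from 993 to 601 at Knockdown in Cl.3 and from 977 to 163 in Cl.6. Members thus kept a larger share in both. In Cl.9 at Recovery the other genes stood at 251, from a Baseline of 983, a smaller share than at the members. Member gene starts inside a UMR rose from 128 to 136 in Cl.3, 126 to 134 in Cl.6, 124 to 142 in Cl.9, 128 to 162 in R1 and 126 to 157 in R2. At Recovery the counts were 130, 134, 141, 129 and 129. The mean rise at Knockdown was 11.3 starts with shUHRF1 and 32.5 with shDNMT1. It was 28.7 and 67.5 when any overlap of the promoter window counted, and 32.7 and 61.0 for UMRs of at least 1 kb. Set beside other chromosome 19 genes the rise also turned on the definition. In R2 starts in a UMR went from 51.2 to 63.8% of members and from 57.2 to 81.9% of other chromosome 19 genes. In R1 promoter windows touching a UMR went from 133 to 199 of 246 members and from 737 to 1040 of 1230 other genes, a similar share of each. Of the starts newly in a UMR at Knockdown, 5 of 9, 8 of 9 and 16 of 19 were still in one at Recovery in the clones, compared with 4 of 34 in R1 and 4 of 31 in R2.

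CpG density was compared within the members, where a low-density CpG is one whose nearest neighbour is at least 20 bp away. At member gene ends the Knockdown ΔmC with shUHRF1 was -21.2 ± 8.19 where CpGs were sparse in this sense and -15.0 ± 6.65 at the other, high-density CpGs (SD, n = 3), a difference of -6.21 ± 1.68 taken within each clone. With shDNMT1 it was -33.5 ± 0.695 and -32.6 ± 1.64 (SD, n = 2), a difference of -0.958 ± 0.944, about as large as its spread. With the limit at 35 bp the differences were -3.62 ± 0.633 and 1.51 ± 1.46, so the sign with shDNMT1 turned. At member promoters, with the limit at 20 bp, they were -10.7 ± 3.61 and -13.5 ± 0.665. At ends of other chromosome 19 genes the 20 bp differences were -13.8 ± 5.22 and -9.71 ± 0.439. Over CpGs with Baseline mC of at least 85% the difference at member gene ends was -9.33 ± 3.88 with shUHRF1 and -6.59 ± 0.193 with shDNMT1, a restriction chosen after seeing the data. The restricted values are means over single CpGs with at least 5 reads, picked in each population by the same Baseline that enters the change. The unrestricted values come from summed reads, so the 2 kinds differ in measure and in CpGs. At member last coding segments the difference was -6.96 ± 2.81 and -6.38 ± 1.21 under that restriction, and -4.83 ± 1.37 and 0.0317 ± 0.281 over all CpGs. Restricted in the same way, the difference at member promoters was -12.2 ± 4.07 and -10.7 ± 0.154, with the shRNAs in the other order. At ends of other chromosome 19 genes the restricted difference was -13.3 ± 3.89 and -6.00 ± 0.254.

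The genes through which KRAB zinc finger proteins work were mostly unmethylated at their promoters. Of 16 such genes (TRIM28, SETDB1, ATF7IP, CBX1, CBX3, CBX5, TASOR, MPHOSPH8, PPHLN1, MORC2, ATRX, DAXX, SUV39H1, SUV39H2, EHMT1 and EHMT2), 13 had Baseline promoter mC under 20%, and the median was 1.26%. Promoters were called lower at 7 of 16 with shUHRF1 (against 73.2% of all promoters) and 5 of 16 with shDNMT1 (against 65.3%). Only 55.0% of all promoters were under 20% at Baseline, so here too the shares come from an unlike class. SUV39H1, an H3K9 methyltransferase, had the most methylated promoter (61.7%), with ΔmC of -34.7 and -28.0. TRIM28 read 1.49, 3.42, 1.10, 0.547 and 0.370% at Baseline and 0.347, 0.333, 0.425, 0.340 and 0.0847% at Knockdown in Cl.3, Cl.6, Cl.9, R1 and R2, with the highest value in Cl.6 at Baseline. The same library held the highest Baseline value at 14 of the 16 promoters. Without Cl.6, 3 of the 16 were called lower with shUHRF1 (against 56.3% of all promoters), TRIM28 still among them (edgeR adjusted p = 0.0123).

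The members lie in 16 groups when split at gaps over 1 Mb, and the groups differed in Baseline promoter methylation. The group at chr19:36182276-37817300 held 26 members, 16 of them with a methylated promoter, and its median promoter mC was 83.7%. That at chr19:19668796-24129968 held 37 members with a median of 72.6%, and its gene ends had a median of 57.2%. At chr19:55476617-58481230, the largest group, 19 of 59 promoters were methylated and 30 were under 20%, with a median of 18.3%. Median ΔmC at promoters with shDNMT1 followed this order, at -31.2, -27.5 and -7.57. A promoter cannot fall by more than its Baseline, so that order is not independent of the Baseline medians. With shUHRF1 the medians of these groups were -13.3, -15.2 and -6.55, which did not follow the Baseline order. The group at chr19:51571283-53580269 (39 members, Baseline median 40.8%) had -22.7 with shDNMT1 and -7.68 with shUHRF1.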

How the data were processed

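DNA was bisulfite converted, sequenced on an Illumina instrument and aligned to hg38 by the authors with their Meth10X pipeline. The deposited tables hold, for each CpG and library, counts of methylated reads and of all reads, neither normalised nor filtered here, and all 1105620 chromosome 19 positions lay on a CG of hg38. Bedtools 2.25.0 is among the tools in the submitters' processing notes. The authors also deposited domain calls for each library, used only as positions and classes.

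Members came from the GENCODE annotation. The mC of a window is its summed methylated reads over its summed reads, so well covered CpGs weigh more and the values carry the incomplete conversion of each library. Methylated and unmethylated counts of all protein-coding windows were tested with edgeR 4.0.16 (quasi-likelihood, R 4.3.3), 15 libraries in 1 fit with the population as a block, for 6 contrasts, with Benjamini-Hochberg adjustment over every window that passed. The block pairs libraries of the same clone or bulk population. In the clones their deviations from the group means correlated at 0.372 to 0.860 at promoters and 0.354 to 0.651 at gene ends. In R1 and R2 the correlations were -0.0225 to 0.0137 and -0.000786 to 0.00308, so the pairing showed only in the clones. The 3 clones and 2 bulk populations are the replicates. The labels do not say whether R1 and R2 were separate transductions. The block takes out differences in level between populations. A p-value therefore sets the change between stages against the variation left within populations, with 1 spread per window for all 15 libraries. The arms varied unequally: the SD of the median gene-end ΔmC at Knockdown was 8.08 over the clones and 0.642 over the bulk populations. The fit was also run on simulated data with 1 common spread and the same shift in all 3 clones. The real clones fell unequally, so that run does not vouch for the calls given here.

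Other filters, windows, limma 3.58.1 (pseudocount of 1 on log2 ratios), a fit without the block, and leaving out each population were tried. Named genes were the 5 largest falls in each Knockdown contrast, the 5 smallest falls with shDNMT1 among windows methylated in all populations, the 5 largest remaining falls at Recovery, called gains (there were none), the 3 at each end of the called difference between shRNAs, promoters that differ between populations, and fixed lists. ZNF433, ZNF285 and ZNF880, the genes of the finger pieces, and the coding segments described were chosen after their values were seen. Members and lists were chosen with earlier results of these data known. Wilson intervals cover counting error only, and reads without molecular identifiers are not independent molecules.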

Additional observations from a re-analysis of the deposited data

Results flagged for a closer look

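In 4 cases a change differed between the shRNAs by the test of the difference itself. At promoters, 9 members (3.67%) fell less with shUHRF1 than with shDNMT1 at Knockdown (against 2.87% of all promoters). At Recovery 11 (4.49%) stayed further below their Baseline with shUHRF1 (against 8.74%). At gene ends these counts were 58 of 240 (24.2%, against 37.1% of all gene ends) and 137 of 240 (57.1%, against 62.6%). Only the first of the 4 member shares lay above that of all genes tested. Each of the 4 counts became 0 without the replicate block. Clonal or bulk growth changed with the shRNA, so they cannot be told apart.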

How the results depend on the processing

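Without the replicate block, member promoters called lower went from 187 to 124 at shUHRF1 Knockdown and from 140 to 30 at shUHRF1 Recovery, gene ends at shUHRF1 Recovery went from 231 to 134, and the 4 counts of differences between shRNAs (9, 11, 58 and 137) each became 0. A window of 250 bp either side of the start gave 125 promoters at shDNMT1 Knockdown, 63 at shUHRF1 Recovery, 0 Knockdown differences and 2 Recovery differences. Windows from 1 kb upstream to 100 bp downstream gave 36 and 19 differences, and the canonical start gave 5 Recovery differences. Keeping CpGs that every library covered with 5 reads or more gave 0 Knockdown differences at promoters. Limma on log2 ratios gave 0 and 0 differences at promoters, and limma on percentage points gave 44 and 0 there and 137 and 1 at gene ends. The last 1 kb gave 26 and 81 gene-end differences, and the last coding segment 56 at Recovery.

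Leaving out each population in turn gave 77 to 154 promoters at shUHRF1 Recovery, 0 to 42 Knockdown and 0 to 37 Recovery differences at promoters, and 0 to 130 and 21 to 190 at gene ends. It left median ΔmC with shDNMT1 at -18.0 to -14.8 at promoters and -35.5 to -34.6 at gene ends at Knockdown, and at -0.413 to -0.216 and -0.688 to -0.609 at Recovery. An arm left with 1 shDNMT1 population was assumed to vary like the others.

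The median ΔmC of promoters at shUHRF1 Knockdown was -5.70 within 250 bp. At shDNMT1 Knockdown it was -8.92 with at least 5 reads per CpG, -6.10 within 250 bp, -10.3 at the canonical start and -24.7 from 1 kb upstream. At shDNMT1 Recovery the same settings gave -0.351, -0.149, -0.273 and -0.818. Gene-end medians with shDNMT1 were -36.2 over the last 1 kb and -36.2 over the last coding segment at Knockdown, and -0.703 (at least 5 reads), -0.648 (at least 10 CpGs and 100 reads) and -0.721 (last coding segment) at Recovery. The low minus high density difference was -3.62 with shUHRF1 at a 35 bp limit and -9.33 over CpGs with Baseline mC of at least 85%. With shDNMT1 it reversed to 1.51 at 35 bp, and was -1.96 with at least 5 reads and -6.59 over CpGs with Baseline mC of at least 85%. Member starts in UMRs rose by a mean of 11.3 with shUHRF1 and 32.5 with shDNMT1. Any overlap of the promoter window gave 28.7 and 67.5, and UMRs of at least 1 kb gave 32.7 and 61.0. The cause of these shifts was not tested.

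Of the named genes' alternatives, 3158 kept side and direction, 306 lost the call, 39 gained it and 5 reversed. The reversals (adjusted p) were ZNF274 from 1 kb upstream (0.000681) and ZNF574 at the canonical start (0.828), both at shDNMT1 Knockdown, and the Knockdown difference at the gene ends of ZNF383 (0.00868 by limma on percentage points, 0.0219 in the last coding segment) and ZNF546 (0.0151 in the last coding segment).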

Other observations

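The promoter of ZNF135 (72 CpGs) was the named member at which the bulk populations were least alike. R1 read 79.4% at Baseline, 68.1% at Knockdown and 84.1% at Recovery, while R2 read 88.2, 45.1 and 84.9%. The ΔmC at Knockdown was -27.1 ± 22.5 (SD, n = 2; edgeR adjusted p = 0.000163). ZNF135 read 89.4, 84.7 and 86.9% in Cl.3, 88.6, 74.1 and 77.7% in Cl.6, and 74.2, 57.0 and 63.1% in Cl.9.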
